A study of Mus musculus with 20 samples.

Results

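The genes described here are 8 genes of cellular iron control, chosen by symbol: the ferritin subunits Fth1 and Ftl1, the transferrin receptor Tfrc, the iron exporter ferroportin (Slc40a1), the divalent metal transporter Slc11a2, the iron regulatory proteins Aco1 and Ireb2, and the ferritin autophagy receptor Ncoa4. RNA-Seq and POL-Seq counts were given for 7 of them among 14924 genes, 3′ end counts for 7 among 9621 genes, and HuD CRAC windows for 2 among 1435 genes. The values of Slc40a1 were not analysed here. The 20 libraries came from NSC-34 cells, a mouse line with motor neuron features. RNA-Seq measured total RNA, POL-Seq measured RNA from the pooled polysomal fractions of a sucrose gradient, 3′ end sequencing counted mRNA ends, and CRAC counted reads at sites crosslinked to HuD, an RNA-binding protein of neurons encoded by ELAVL4. HuD cells carried an inducible, tagged human HuD from a lentiviral construct, and control cells were Trex NSC-34 cells without it. For RNA-Seq and POL-Seq (2 control and 2 HuD libraries each) and 3′ ends (3 and 3), HuD cells are labelled as induced over 48 h with tetracycline at 2 µg/ml, and no agent is named for control cells. For CRAC (3 and 3), the labels give 10 µg/ml and 24 h for both cell types. The study's CRAC methods give the same agent, dose and time, whereas its results section names others. A difference between HuD and control cells outside CRAC therefore cannot be told apart from a difference between the lines or from the tetracycline. The replicates are described as biological, and nothing in the labels says that they were separately derived lines.

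Ferritin is the shell of heavy (FTH1) and light (FTL1) chains in which cells store iron. Its synthesis is the textbook case of translational control. When iron is scarce, the iron regulatory proteins IRP1 (Aco1) and IRP2 (Ireb2) bind a hairpin, the iron-responsive element, near the start of the ferritin mRNAs and keep ribosomes from loading. The same proteins bind hairpins in the 3′ UTR of the Tfrc mRNA and protect it from decay, so that iron uptake and iron storage move in opposite directions.

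The hairpins were located in the annotated mRNAs, because they are the known binding sites of the iron regulatory proteins. The search looked on the sense strand for a C, any 5 bases, CAGTG with A, C or T after it, and 5 bases able to pair with the first 5. In the lines below, the capitals mark the bulged C and the loop of 6 bases, and the sequences are those of GENCODE vM21 transcripts on GRCm38.
Fth1, 5′ UTR, bases 86 to 115 of the mRNA, chr19:9982731-9982760, plus strand: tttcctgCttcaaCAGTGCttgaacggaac
Ftl1, 5′ UTR, bases 77 to 106 of the mRNA, chr7:45459779-45459808, minus strand: tgtcttgCttcaaCAGTGTttgaacggaac
Slc40a1, 5′ UTR, bases 89 to 118 of the mRNA, chr1:45925465-45925494, minus strand: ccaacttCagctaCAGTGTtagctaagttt
Tfrc, 3′ UTR, element 1, bases 3314 to 3343, chr16:32631218-32631247, plus strand: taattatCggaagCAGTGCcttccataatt
Tfrc, 3′ UTR, element 2, bases 3693 to 3722, chr16:32631597-32631626, plus strand: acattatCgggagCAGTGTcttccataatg
Tfrc, 3′ UTR, element 3, bases 3758 to 3787, chr16:32631662-32631691, plus strand: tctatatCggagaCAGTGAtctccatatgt
Tfrc, 3′ UTR, element 4, bases 3805 to 3834, chr16:32631709-32631738, plus strand: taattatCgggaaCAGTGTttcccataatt
The ferritin elements lay 115 bases (Fth1) and 153 bases (Ftl1) before the start codon, and the Tfrc elements began between 888 and 1379 bases after the stop codon. Each lay within an exon. The motif was found in the 5′ UTR of 23 of 20916 genes with an annotated 5′ UTR (0.11%), in the coding sequence of 101 of 21901 (0.461%) and in the 3′ UTR of 100 of 21045 (0.475%). The mRNA with the most 3′ end reads of each of Slc11a2, Aco1, Ireb2 and Ncoa4 held no match to these letters, which says nothing of other isoforms.

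Total counts ranged from 21296012 to 36284728 per RNA-Seq or POL-Seq library and from 12986862 to 15751036 per 3′ end library. The row of mouse Elavl4, the gene whose human form was induced, had 87.8 ± 13.6 CPM (counts scaled to library size) in total RNA of control cells and 224 ± 17.6 in HuD cells (SD, n = 2 each), a 2.55-fold difference with an adjusted p = 0.0866 in edgeR's quasi-likelihood test and 3.85e-16 in DESeq2. In the 3′ end libraries, where only ends near known mouse polyadenylation sites were counted, Elavl4 had 64.9 ± 22.9 CPM in control and 46.1 ± 12.8 in HuD cells (SD, n = 3), so these libraries give no check of the induction. Of 12 neuronal markers 10 had values, with Tubb3 at 560 to 673 CPM and Isl1 at 34.7 to 47.3, while the cholinergic enzyme Chat was at 0.449 to 0.608 and neither Slc5a7 nor Mnx1 had a value. The summed level of glial markers (3 of 6 with values) was 14.3 to 18.8 CPM, of macrophage markers (1 of 6) 0.350 to 1.05 and of erythroid markers (1 of 6) 0.372 to 0.734.

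In total RNA, the ferritin genes stood far above the other members. On a scale of counts divided by library size and by the union of annotated exons (FPKM), Ftl1 had 992 ± 124 in control cells and Fth1 357 ± 60.2 (SD, n = 2), which ranked 20 and 95 of 14842 genes. Ireb2 followed with 17.7 ± 1.26, Slc11a2 with 13.0 ± 1.56, Tfrc with 9.51 ± 0.923, Aco1 with 6.28 ± 1.05 and Ncoa4 with 1.71 ± 0.133. The neighbours in this order each differed by more than the sum of their SDs. The order of the ferritin chains depended on the length used: the union of exons of Fth1 spans 3469 nt, whereas the mRNA with the most 3′ end reads has 929 nt for Fth1 and 968 nt for Ftl1. With these lengths, a choice made after seeing the data, Fth1 had 1331 ± 225 FPKM and Ftl1 1373 ± 172, a difference smaller than either SD, and Slc11a2 (27.3 ± 3.28) and Ireb2 (29.0 ± 2.07) also lay within their spread. HuD cells gave nearly the same levels, with 925 ± 10.3 FPKM for Ftl1 and 334 ± 9.06 for Fth1 over the union of exons.

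Both ferritin mRNAs were strongly under-represented on polysomes, in control and in HuD cells alike. Fth1 was measured at 1384 and 1089 CPM in the total RNA of control cells and at 527 and 336 CPM in their polysomal RNA. In HuD cells it was measured at 1180 and 1135 CPM in total RNA and 419 and 378 CPM in polysomal RNA. All 4 polysomal libraries lay below all 4 total RNA libraries. The polysomal level of Fth1 was 2.86-fold lower than the total level in control cells (log2 difference -1.52, SE 0.197, 95% interval -1.96 to -1.07, adjusted p = 0.0270, edgeR) and 2.91-fold lower in HuD cells (log2 difference -1.54, SE 0.197, 95% interval -1.98 to -1.09, adjusted p = 0.0141).

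Ftl1 behaved in the same way, with less spread. It was measured at 1447 and 1212 CPM in total RNA of control cells and 1230 and 1249 CPM in that of HuD cells. On polysomes it was measured at 480 and 379 CPM in control cells and 370 and 384 CPM in HuD cells. The groups again did not overlap. Its polysomal level was 3.10-fold lower in control cells (log2 difference -1.63, SE 0.134, 95% interval -1.93 to -1.33, adjusted p = 0.00798) and 3.29-fold lower in HuD cells (log2 difference -1.72, SE 0.135, 95% interval -2.02 to -1.41, adjusted p = 0.00515). Among all genes tested, Ftl1 had the smallest p in both cell types. In libraries with the same number, the polysomal CPM of either chain was between 30.1% and 38.0% of its CPM in total RNA. Together the chains took 0.225% to 0.284% of the counts of total RNA libraries and 0.0698% to 0.101% of those of polysomal libraries.

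**Figure D1:**
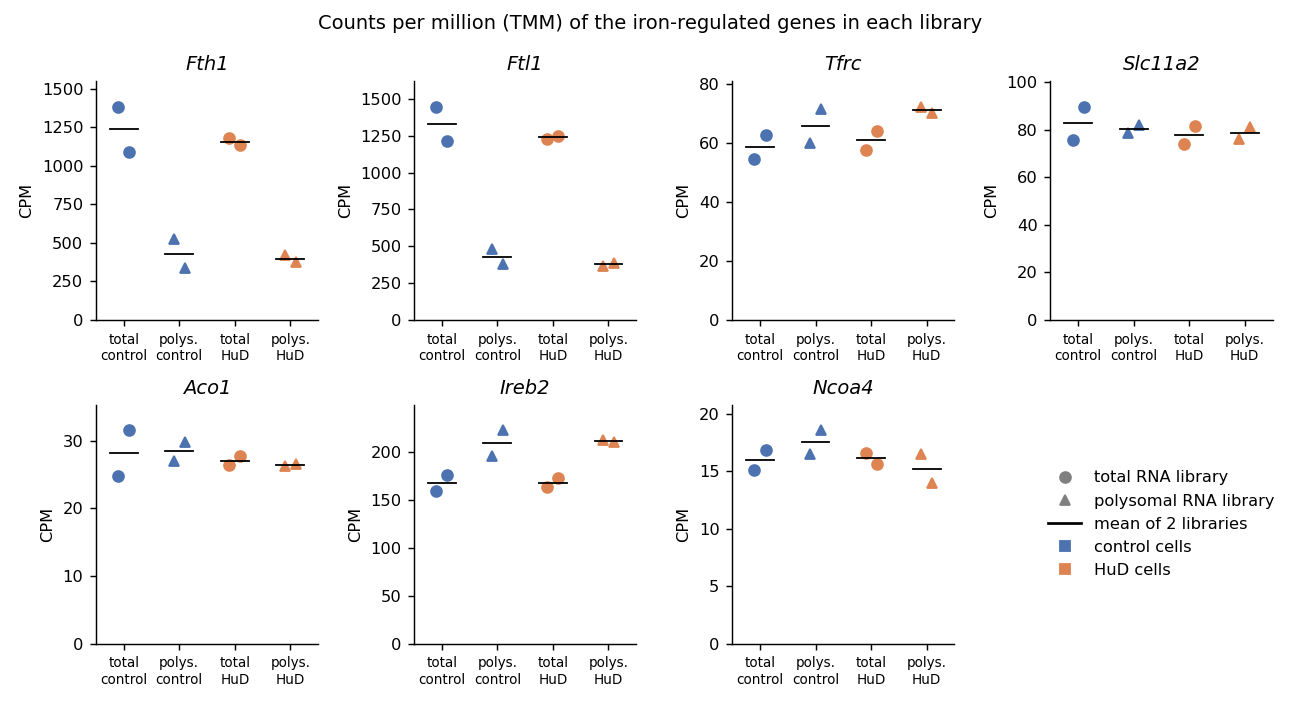
CPM (vertical axis, linear, from 0) of 7 genes in each total RNA library (circles) and polysomal RNA library (triangles) of control (blue) and HuD cells (orange), with the mean of 2 libraries as a line. Fth1 and Ftl1 lie between 336 and 527 CPM in polysomal libraries and between 1089 and 1447 in total RNA. Ireb2 lies between 196 and 223 CPM in polysomal libraries and between 159 and 176 in total RNA. The points of Tfrc, Slc11a2, Aco1 and Ncoa4 lie closer together.

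Few genes behaved this way. Of 14906 genes tested, 26 were lower on polysomes in control cells (0.174%) and none was higher (0%). In HuD cells 73 were lower (0.49%) and 7 higher (0.047%). An unadjusted p under 0.05 was reached by 10.7% of genes in control cells and 12.4% in HuD cells, and the 2 libraries of one fraction did not overlap those of the other for 39% and 49.8% of genes. Of the 7 members tested, 2 passed the threshold in each cell type, Fth1 and Ftl1, both lower, and Fth1 stood at percentile 0.302 and Ftl1 at percentile 0.215 of all log2 differences in control cells. The median log2 difference was 0.0072 for the 7 members in control cells and 0.0090 for all genes. CPM are shares of a library, so these are differences relative to the bulk of mRNAs, and they do not give the fraction of ferritin molecules bound by ribosomes.

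The direction of the ferritin difference held in every fit with a library left out, whereas its adjusted p depended on the libraries in the fit. With each of the 8 libraries left out in turn, the log2 difference stayed between -1.88 and -1.24 (Fth1) and between -1.81 and -1.48 (Ftl1) in control cells, and between -1.61 and -1.46 (Fth1) and between -1.74 and -1.69 (Ftl1) in HuD cells. In control cells, Fth1 lost its call without HuD polysomal library 1 (adjusted p = 0.0681) or 2 (0.0693), control total library 1 (0.254) or 2 (0.118), or HuD total library 1 (0.0767) or 2 (0.0772), and Ftl1 lost it without control total library 1 (0.0860). In HuD cells, Fth1 lost its call without HuD polysomal library 1 (0.248) or 2 (0.179) or HuD total library 1 (0.0789) or 2 (0.103), and Ftl1 without HuD polysomal library 1 (0.156) or 2 (0.0934). Fitted with only the 4 libraries of control cells, no gene passed (Fth1 adjusted p = 0.433, Ftl1 0.317), while the 4 libraries of HuD cells alone gave 0.000140 and 8.36e-05. Control polysomal library 1 had the largest influence on the calls: without it 2145 genes passed in control cells, with adjusted p = 0.000222 for Fth1 and 0.000127 for Ftl1.

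The one other ferritin row that passed was a copy of the light chain. The row named Gm10116 carries the identifier of Ftl1-ps1, a light-chain retrogene on chromosome 13 in GENCODE vM21, and was named after its values were seen. It had 7.15 to 8.34 CPM in total RNA of control cells and 1.44 to 2.80 CPM on their polysomes. It was lower on polysomes by -1.81 on the log2 scale in control cells (adjusted p = 0.0289) and by -1.66 in HuD cells (adjusted p = 0.0228, edgeR), and both calls were kept only without control polysomal library 1 or 2 among the 8 fits with a library left out, with adjusted p up to 0.307 in control cells (without control total library 1) and 0.352 in HuD cells (without HuD polysomal library 1). The gene shares 675 stretches of 50 bases with the Ftl1 mRNA, and its reads cannot be told apart with certainty from those of Ftl1. Across the Ftl1 mRNA, 78.9% of such stretches occur in at least 1 of 15 other annotated genes, against 6.59% for Fth1, so uniquely mapped reads sample a limited part of Ftl1. No other ferritin copy that shares a stretch passed the threshold: Gm7541, the remaining copy of Ftl1 with counts, had a log2 difference of -0.14 in control cells (adjusted p = 0.905) and -0.65 in HuD cells (adjusted p = 0.621).

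Genes with a matching hairpin in the 5′ UTR had a wide range of polysome levels. Of 17 tested genes with the motif there, 3 were lower in both cell types, namely Fth1, Ftl1 and its copy Gm10116. Over all genes, 0.174% were lower in control and 0.49% in HuD cells. With the members left out, 1 of 15 genes with the motif was lower in each cell type. That gene was Gm10116, whose reads cannot be told apart with certainty from those of Ftl1. The 3 calls therefore add no gene beyond ferritin and its copy. At an unadjusted p under 0.05 there were 3 lower and 1 higher in control cells, and 3 lower and 0 higher in HuD cells. The 17 log2 differences ran from -1.81 to 0.29 in control cells, and the median log2 difference was -0.0011 in control cells and 0.06 in HuD cells, against 0.0090 and 0.0055 for all genes. Of 75 tested genes with the motif in the 3′ UTR none passed the threshold in either cell type by edgeR. At an unadjusted p under 0.05, 3 were lower and 4 higher in control cells, and 4 were lower and 5 higher in HuD cells.

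The transferrin receptor was not depleted from polysomes. Tfrc, the receptor that takes up transferrin-bound iron, was measured at 54.8 and 62.8 CPM in total RNA of control cells and at 59.9 and 71.5 on their polysomes, so that the groups overlapped. In HuD cells the values were 57.7 and 64.2 CPM in total RNA and 72.3 and 70.1 on polysomes, without overlap. The log2 difference was 0.16 in control cells (SE 0.111, 95% interval -0.09 to 0.41, adjusted p = 0.559) and 0.22 in HuD cells (SE 0.110, 95% interval -0.02 to 0.47, adjusted p = 0.467, edgeR). The lower bounds lie well above the ferritin values.

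Ireb2, which encodes the iron regulatory protein that is degraded when iron is plentiful, had the highest polysomal level relative to total RNA among the members. It was measured at 159 and 176 CPM in total RNA of control cells against 196 and 223 CPM on polysomes, and at 163 and 173 against 212 and 211 CPM in HuD cells. The groups did not overlap, which was so for 3 of the 7 members in control cells (Fth1, Ftl1, Ireb2) and for 4 in HuD cells (these and Tfrc). Over all genes tested it was so for 39% in control cells and 49.8% in HuD cells, so a lack of overlap sets no member apart. The log2 difference of Ireb2 was 0.32 (95% interval 0.11 to 0.53, adjusted p = 0.417) and 0.33 (95% interval 0.12 to 0.54, adjusted p = 0.197), at percentiles 94.9 and 96.0 of all genes, and did not pass the threshold. It passed without control polysomal library 1 in control cells (adjusted p = 0.0200), and in HuD cells without control polysomal library 2 (0.0394) and with only the 4 libraries of HuD cells (0.0498).

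The remaining members had similar levels in both fractions. Aco1, the cytosolic aconitase that binds RNA when it lacks its iron-sulphur cluster, was measured at 24.9 to 31.6 CPM in total RNA and 26.3 to 29.9 CPM on polysomes over the 4 libraries of each. Slc11a2, which moves ferrous iron across membranes, was measured at 73.8 to 89.7 and 76.2 to 82.2 CPM. Ncoa4, which delivers ferritin to autophagosomes, was measured at 15.1 to 16.9 and 13.97 to 18.6 CPM. Their log2 differences lay between -0.08 and 0.13 in either cell type, and the widest 95% interval ran from -0.15 to 0.41 (Ncoa4 in control cells). Of the stretches of 50 bases of the Ncoa4 mRNA, 52.5% also occur in Gm6768, so its counts too come from part of the gene.

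**Figure D2:**
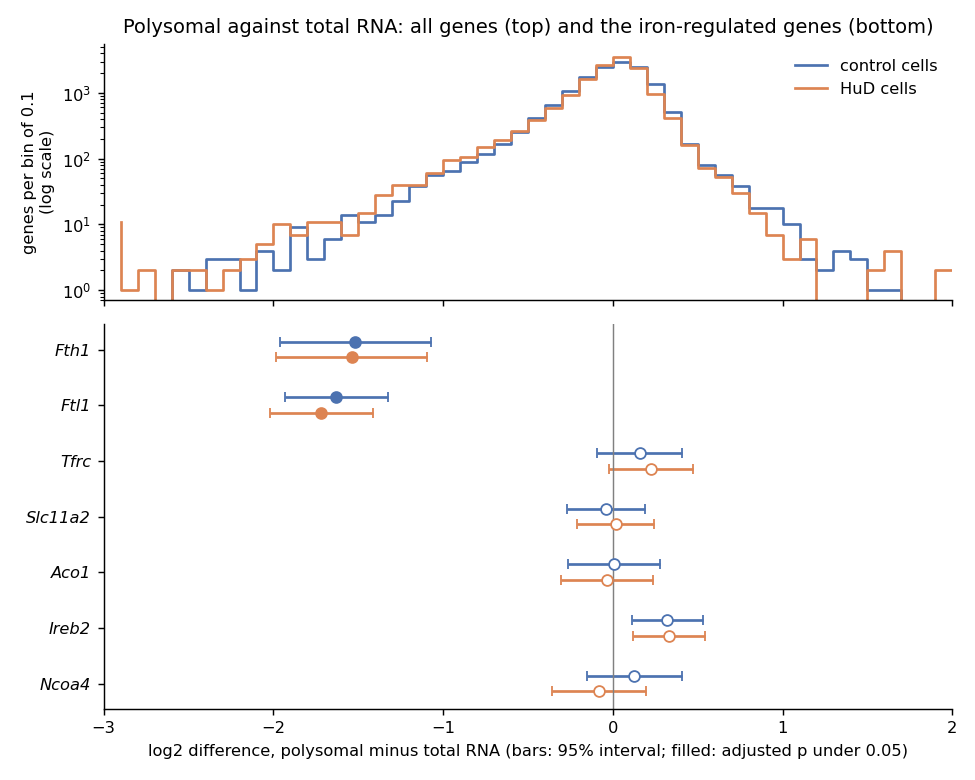
Log2 difference between polysomal and total RNA (horizontal axis), as the number of genes per bin of 0.1 on a log axis for all 14906 genes (top, genes below -3 in the lowest bin) and as estimates with 95% intervals for 7 genes (bottom), in control (blue) and HuD cells (orange). Filled points passed an adjusted p of 0.05. Fth1 and Ftl1 sit at -1.52 to -1.72, in the thin left tail, and the other genes between -0.08 and 0.33.

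Induced HuD was not found to change the RNA of any member. In total RNA the log2 difference between HuD and control cells lay between -0.10 (Ftl1, 95% interval -0.40 to 0.19) and 0.05 (Tfrc, 95% interval -0.20 to 0.30), with adjusted p = 1.00 for each member. In polysomal RNA it lay between -0.20 (Ncoa4, 95% interval -0.48 to 0.08) and 0.12 (Tfrc, 95% interval -0.13 to 0.37), and the 2 HuD libraries lay below the control libraries for 1 member, Aco1, at 26.3 and 26.6 against 27.0 and 29.9 CPM. No gene at all passed the adjusted threshold in edgeR (0% in total and 0% in polysomal RNA), an unadjusted p under 0.05 was reached by 2.64% and 4.17% of genes but by none of the 7 members, and the groups of 2 did not overlap for 31.9% and 28.7% of genes. DESeq2 called 1 and 3 genes, no member among them. For Fth1 in total RNA the 95% interval ran from 0.693-fold to 1.26-fold.

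The polysomal to total ratio of the ferritin mRNAs did not differ detectably between the cell types. The interaction term, which compares the ratio of HuD cells with that of control cells, was -0.02 for Fth1 (95% interval -0.64 to 0.59) and -0.09 for Ftl1 (95% interval -0.50 to 0.33). For the other members it lay between -0.21 (Ncoa4) and 0.07 (Tfrc). No gene passed (0%), and 0.979% of genes but no member had an unadjusted p under 0.05. These intervals are wide, since each ratio rests on 2 libraries per fraction.

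**Figure D3:**
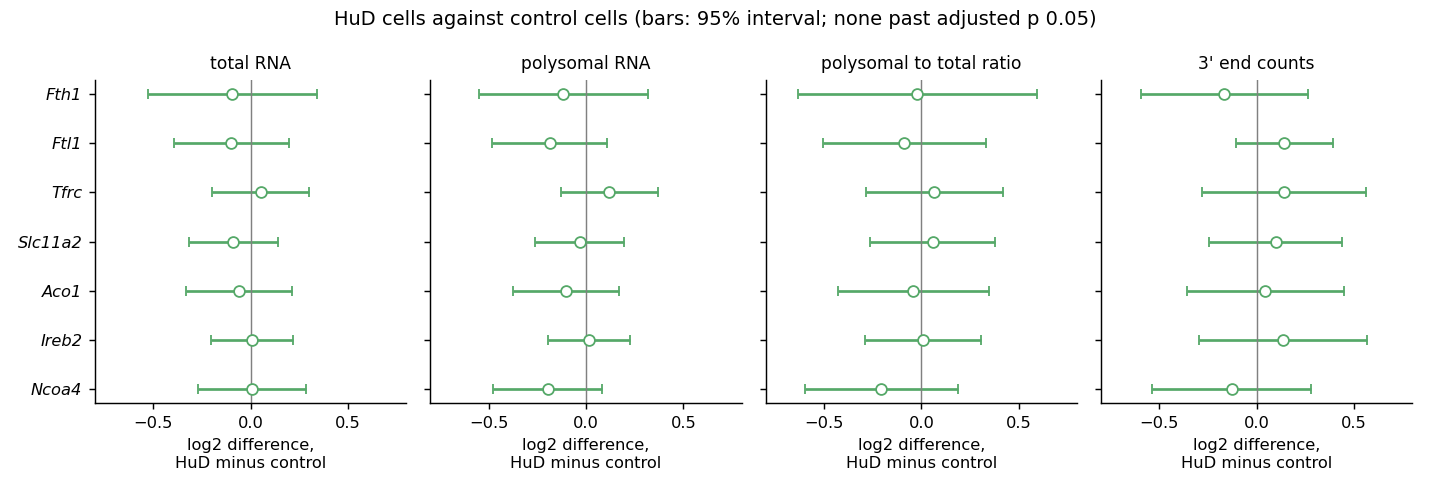
Log2 difference between HuD and control cells with its 95% interval (horizontal axis) for 7 genes in total RNA, in polysomal RNA, for the ratio of the fractions and in 3′ end counts. Every interval includes 0, and the estimates lie between -0.21 and 0.14. The intervals for 3′ end counts are from the fit without the replicate number as a block.

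The 3′ end libraries, from separate samples, called no member either. Fth1 had 853, 1192 and 839 CPM in control cells and 759, 1075 and 737 in HuD cells, with overlapping groups (log2 difference -0.17, 95% interval -0.60 to 0.26, adjusted p = 0.994). Ftl1 had 186, 206 and 191 CPM against 205, 220 and 218 (log2 difference 0.14, 95% interval -0.11 to 0.39, adjusted p = 0.955). Tfrc had 83.8, 103 and 87.7 CPM against 84.3, 131 and 86.9 (log2 difference 0.14, 95% interval -0.28 to 0.56, adjusted p = 0.994). Library 2 was the highest of its group for Fth1 and Tfrc in both cell types. In each pair of libraries with the same number, Fth1 was lower and Ftl1 higher in HuD cells. With the number as a block the log2 difference was -0.17 for Fth1 (adjusted p = 0.198, edgeR) and 0.14 for Ftl1 (adjusted p = 0.338), and neither passed. Without the block no member passed, and none had an unadjusted p under 0.05 (5.87% of 9621 genes did). The intervals above come from this fit without the block, which leaves out the pairing. Intervals under the block are not given. The test called 5 genes (0.052%), and 217 with the replicate number as a block, no member among either. For 12% of genes the groups of 3 did not overlap, but for each member they did.

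Ftl1 had far fewer 3′ end reads than Fth1, although the RNA-Seq levels per length of their main mRNAs were alike. Ends are counted once per molecule, and over control libraries Fth1 had 962 ± 200 CPM and Ftl1 194 ± 10.3 (SD, n = 3), with 3.39 to 5.80 Fth1 ends per Ftl1 end over the 6 libraries. In the last 200 bases of the mRNA, 71.5% of stretches of 50 bases of Ftl1 occur in another annotated gene and none of Fth1 (0%), and the part of this in the low count was not tested.

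Use of alternative 3′ ends gave nothing on these genes. Fth1, Slc11a2, Aco1, Ireb2 and Ncoa4 had a single counted end. Tfrc had 2 ends 4 bases apart, at 32632790 and 32632794 on chromosome 16, which took 48.9% ± 0.480 and 51.1% ± 0.480 of reads in control cells and 48.6% ± 0.175 and 51.4% ± 0.175 in HuD cells (SD, n = 3). Ftl1 had 2 adjoining ends, the major one with 81.7% ± 0.619 and 82.3% ± 0.435. The usage test of edgeR gave an adjusted p = 1.00 for both genes, and over all genes 1 of 3317 passed (0.0301%), with 0.151% at an unadjusted p under 0.05. Both counted Tfrc ends lie 3′ of the 4 hairpins.

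HuD CRAC windows were listed on Fth1 and Tfrc, and on no other member. This is 2 of the 7 members with counts, where 8.6% of the genes tested in RNA-Seq were among the 1304 protein coding targets. CRAC marks crosslinked nucleotides by deletions in the reads. The sequences below show each window in a 3′ UTR, in capitals within its 30 bases of mRNA, as genomic DNA letters, with positions on GRCm38 taken from the match to the transcript because the listed positions were offset by 1 base from the listed letters.
Fth1, 3′ UTR, bases 797 to 803 of the mRNA, chr19:9984966-9984972: aaagccacgtgACTTTACtggtcactgagg
Fth1, 3′ UTR, bases 843 to 849, chr19:9985012-9985018: ggctgccttcaTCTTTTCtataagttgcac
Fth1, 3′ UTR, bases 872 to 878, chr19:9985041-9985047: ccaaaacatctGCTTAAGttctttaatttg
Fth1, 3′ UTR, bases 880 to 886, chr19:9985049-9985055: tctgcttaagtTCTTTAAtttgtaccattt
Tfrc, 3′ UTR, bases 4136 to 4142, chr16:32632040-32632046: tagttcttagaAGTTTGAattcatttttgg
These 5 windows lie on the plus strand. On Fth1 the strongest signal lay between bases 843 and 886 of the 929 bases of the mRNA, with windows of 332, 527 and 520 covering reads and 37, 3 and 24 reads with a deletion, in the order of the lines. The window next to the stop codon had 47 reads and 12 deletions. The single Tfrc window, 3′ of the 4 hairpins, had 25 reads and 13 deletions. Control coverage was 0 in each of the 5 windows. The authors marked down sites with control reads before listing windows, so this is no separate measure of specificity. The authors pooled the replicates, so these values carry no replicate error, and neighbouring windows share reads.

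The authors' combined p, which is not adjusted, was lowest for the Fth1 windows with 332 reads (0.00236) and 520 reads (0.00293). By coverage summed over all listed windows of a gene, Fth1 with 1492 reads ranked 20 of 1304 protein coding targets and Tfrc with 25 reads ranked 679. The sum for Fth1 is over all its windows, those not described here included. By reads with a deletion, Fth1 with 81 ranked 22 and Tfrc with 13 ranked 350. The high level of Fth1 in total RNA goes with this rank, and its part in it was not tested. Per CPM of total RNA in control cells, Fth1 had 1.21 covering reads and ranked 229 of 1282 targets with counts. Tfrc had 0.425 and ranked 509, and the median target had 0.288. CPM are not divided by length, and the main mRNAs have 929 nt (Fth1) and 4890 nt (Tfrc). These values and ranks therefore do not compare HuD binding per molecule between the genes. Ftl1 had no listed window. Its level in total RNA of control cells was 1373 FPKM over the main mRNA, against 1331 for Fth1. Over the union of exons it was 992 against 357 FPKM, and in 3′ ends of control cells 194 against 962 CPM. A like number of molecules is therefore not established. The repeated sequence of Ftl1 was described above, and the part of read mapping in its lack of a window was not tested.

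**Figure D4:**
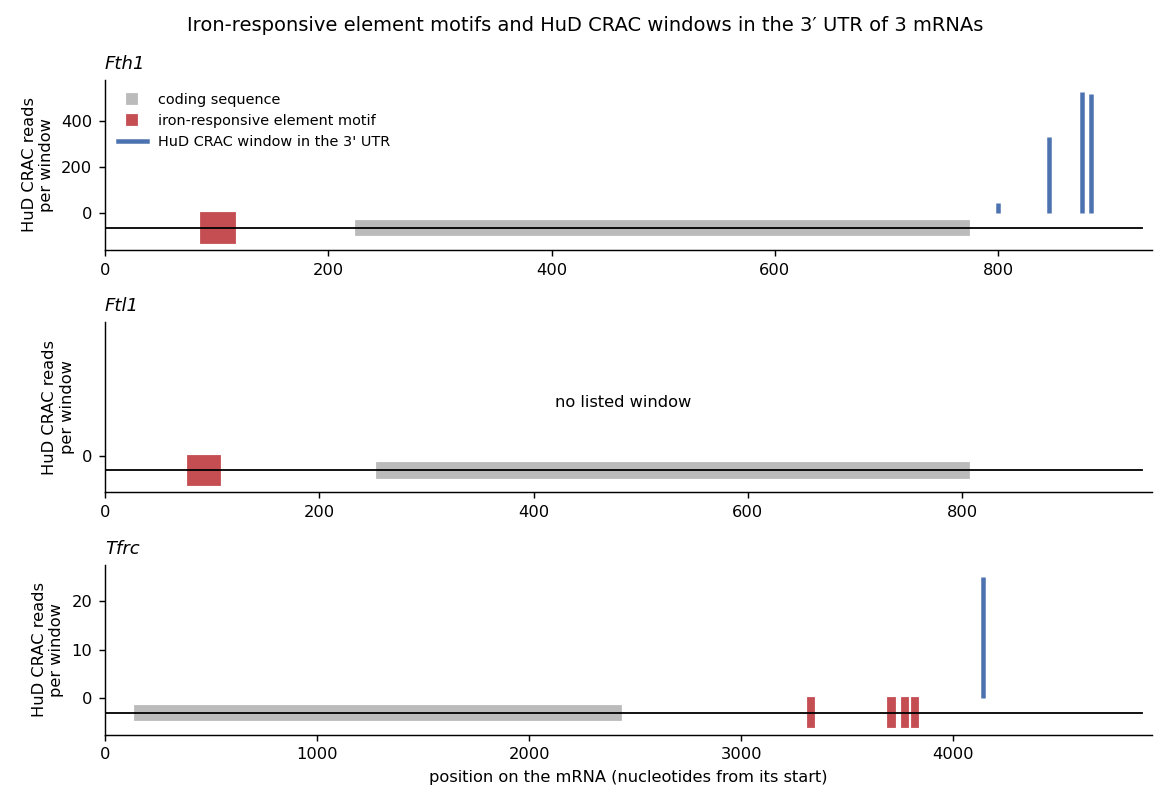
Position along the mRNA in nucleotides (horizontal axis) of the coding sequence (grey), the iron-responsive element motifs (red) and the HuD CRAC windows in 3′ UTRs (blue lines, height in covering reads, linear) for Fth1 (929 nt), Ftl1 (968 nt) and Tfrc (4890 nt). The Fth1 windows drawn lie near the 3′ end, away from the hairpin in the 5′ UTR, and the Tfrc window lies 3′ of all 4 hairpins.

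Differences of the size seen for ferritin were not found among other genes of iron metabolism. Of 67 genes in 7 lists (iron uptake, chaperones and export, turnover of the iron regulatory proteins, mitochondrial and cytosolic iron-sulphur cluster assembly, haem, and other mRNAs with a known hairpin), 58 were tested. In control cells none passed the threshold by edgeR, and at an unadjusted p under 0.05 there were 3 higher and 10 lower, of the 58, where 10.7% of all genes reached this level. In HuD cells there were 1 higher and 9 lower, where 12.4% of all genes did. List medians ran from -0.20 for chaperones and export (3 genes tested) to 0.13 for turnover of the regulatory proteins (4 genes), against 0.0090 for all genes. The smallest p values belonged to Ppox, the penultimate enzyme of haem synthesis (log2 difference -0.34, adjusted p = 0.256), and to the iron-sulphur assembly factors Isca2 (-0.37, adjusted p = 0.405) and Bola3 (-0.69, adjusted p = 0.447).

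In HuD cells 1 gene of these lists passed, Ppox, which was lower on polysomes (log2 difference -0.53, SE 0.0766, adjusted p = 0.0243, edgeR). It was the single call among 12 genes of haem synthesis and breakdown, whose median was 0.07. The call was lost without HuD polysomal library 1 (adjusted p = 0.434) or 2 (0.184), control total library 1 (0.0628) or 2 (0.0643), or HuD total library 1 (0.121) or 2 (0.230). The difference of Ppox between the cell types was itself -0.19 with a 95% interval of -0.43 to 0.06 and did not pass.

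Between HuD and control cells no gene of the lists passed in any fraction. Among the smallest unadjusted p values in total RNA were those of the iron chaperone Pcbp1 (log2 difference -0.22, adjusted p = 1.00) and the ferrireductase Steap3 (-0.44). In polysomal RNA they were those of Tfr2 (0.49), Hmox2 (-0.19) and Hfe (0.30), and for the ratio those of Pcbp1 (0.22), Herc2 (-0.22) and Ppox. Among 45 genes with 3′ end counts they were Ndor1 (-0.69, adjusted p = 0.836), Cpox (-0.32) and Mcoln1 (0.45). HuD windows were listed for 7 of the 58 genes, where 8.6% of all genes tested were protein coding targets. Pcbp2 had 14 windows and 4231 reads, and ranked 6 of 1304 by summed coverage, which is not scaled to RNA level. Cdc42bpa had 4 windows, and both genes were named after their values were seen.

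**Figure D5:**
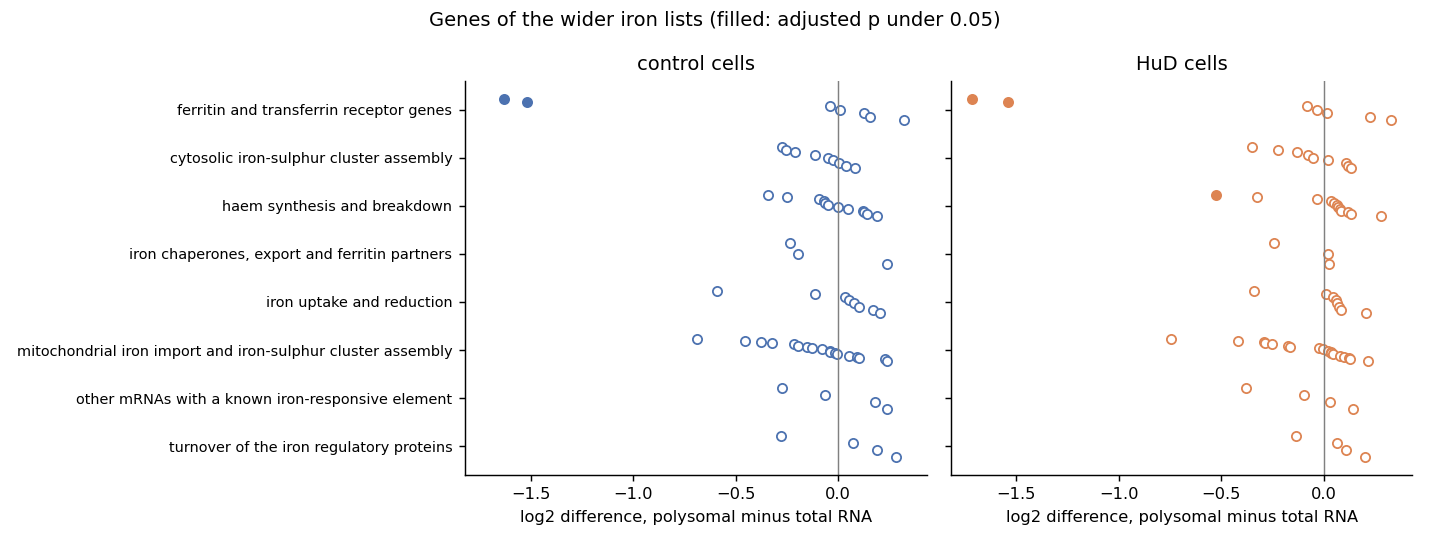
Log2 difference between polysomal and total RNA (horizontal axis) of each gene, by list (rows), in control and in HuD cells. Filled points passed an adjusted p of 0.05, which holds for Fth1 and Ftl1 in both panels and for Ppox in HuD cells.

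Over the 8 RNA-Seq and POL-Seq libraries the genes closest to the ferritin chains included several ribosomal protein genes. Among 9702 genes with a mean of at least 10 CPM, the highest Pearson correlations of log2 CPM with Ftl1 were those of the ribosomal protein genes Rplp0 (r = 0.999), Rps2 (0.999) and Rpsa (0.998), and with Fth1 those of Rbms2 (0.996), Rplp0 (0.994) and Rps2 (0.992). Fth1 and Ftl1 themselves had r = 0.991. The 8 points form 2 clusters, total and polysomal RNA, so these values mainly say that the same libraries were high. Of the 26 genes lower on polysomes in control cells, 8 had a mean level at or above that of Fth1 (806 CPM), which besides ferritin were Rplp0, Rplp1, Rps12, Rpsa, Rpl12 and Pabpc1, a set named after its values were seen. Their log2 differences lay between -1.42 (Rplp1) and -0.68 (Pabpc1), each smaller in size than those of Fth1 and Ftl1. For Tfrc the closest genes were Orc4 (0.992), Stam (0.981) and Acvr2a (0.979).

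The short coding sequences of ferritin (549 nt for Fth1 and 552 nt for Ftl1) were set beside their ratio. Over 12864 genes with a coding length, Spearman's rho of length and log2 ratio was 0.252 in control cells and -0.0085 in HuD cells, as a description across genes, which are not independent. The part of coding length in the ferritin ratios was not tested.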

How the data were processed

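For RNA-Seq, POL-Seq and 3′ ends, the authors deposited counts of uniquely mapped reads, made with STAR 2.5.3a on GRCm38.p4 with Gencode M6, not normalized. The libraries of RNA-Seq and POL-Seq were strand-specific, and 3′ end reads were those starting near known polyadenylation sites. For CRAC, the authors aligned with TopHat2 2.0.14, pooled the replicates and deposited for each window the coverage as a signal in reads, the count of reads with a deletion, an unadjusted p-value and a score against their weight matrix. Windows listed for several transcripts were reduced to 1.

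From these counts, edgeR 4.0.16 (R 4.3.3; TMM, filterByExpr, quasi-likelihood test, Benjamini-Hochberg at 0.05) was run as a fit of 4 group means to 8 libraries, which pools the spread of groups of 2, and of 2 groups to 6 libraries for 3′ ends, summed over unique ends. For end usage, p-values of diffSpliceDGE were combined per gene by Simes. Alternatives were DESeq2 1.42.0, RLE scaling, no filter, a replicate block, the libraries of a comparison alone, merged ends and leaving out each library. The procedures were tested on simulated data. Sequences, exons and coding regions came from GENCODE vM21, whose gene identifiers match by ID, and figures were made with matplotlib 3.10.9 in Python 3.11.15. Intervals cover 95%.

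Members and lists were chosen with earlier results of these data known. Named by rule were the members, up to 5 genes of the iron lists past the threshold or up to 3 with the smallest p, the 3 genes most correlated with Fth1, Ftl1 and Tfrc, Elavl4 and ferritin copies, here matched by identifier. Deviations of same-numbered 3′ end libraries correlated at 0.415, 0.678 and 0.534, so their numbers were taken to pair them. RNA-Seq and POL-Seq have only 2 numbers, which no label ties to a shared batch or day, and were not taken to pair libraries. No 2 libraries were identical. Protein sequences and Slc40a1 expression were not analysed here. Some items that the rules would name are not reported here.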

Additional observations from a re-analysis of the deposited data

How the results depend on the processing

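Of 814 values recomputed under an alternative, 654 were counted as the same. For tested log2 differences this meant the same direction and side of the threshold. For counts of genes or windows, FPKM and CRAC shares it meant a value within a set margin of the main one. The counts of genes that passed between polysomal and total RNA, 26 in control and 80 in HuD cells, became 67 and 239 with DESeq2, 41 and 416 with the replicate number as a block, and 0 and 353 with only the 4 libraries of the comparison, where 0 members passed in control cells. With a library left out they ran from 0 to 2145 (without control polysomal library 1) and from 0 to 411 (without control polysomal library 2), with 0 to 3 members in each. The RNA-Seq and POL-Seq numbers were not taken to pair libraries, with only 2 of them and no label that explains them, although same-numbered libraries deviated together (r 0.240 to 0.494). Under this block Ireb2 passed in HuD cells (adjusted p = 0.0451). Between HuD and control cells, genes that passed in total RNA went from 0 to 1 with DESeq2, with only 4 libraries, and when control polysomal library 1 or 2 was left out (0 to 1). In polysomal RNA they went to 3 with DESeq2 and ran from 0 to 372, and for the ratio from 0 to 47, both highest without control polysomal library 1. For 3′ ends, 5 became 35 with DESeq2 and 217 under the block that pairs the libraries, and ran from 2 to 14 (without HuD library 2). The block changed no member's call there, and gave Elavl4 -0.47 on the log2 scale (adjusted p = 0.0306). Usage calls ran from 0 to 1 and were 0 with ends merged. The cause of these shifts was not tested.

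Signs that turned when a library was left out all belonged to values that had not passed. The ranges below are log2 differences of HuD against control cells in a fraction, in the ratio or in 3′ ends, unless stated. Fth1 ranged from -0.30 to 0.34 (ratio), -0.36 to 0.019 (3′ ends), -0.40 to 0.24 (polysomal) and -0.26 to 0.088 (total). Ftl1 ranged from -0.24 to 0.094 (ratio) and -0.22 to 0.033 (total). Tfrc ranged from -0.058 to 0.20 (ratio), -0.092 to 0.26 (3′ ends), -0.0062 to 0.26 (polysomal) and -0.044 to 0.15 (total). Ireb2 ranged from -0.080 to 0.11 (ratio), -0.031 to 0.32 (3′ ends), -0.074 to 0.12 (polysomal) and -0.065 to 0.080 (total). Aco1 ranged from -0.22 to 0.12 (ratio), -0.057 to 0.18 (3′ ends), -0.22 to 0.12 (total), -0.15 to 0.19 (polysomal against total RNA, control cells) and -0.068 to 0.0027 (polysomal against total RNA, HuD cells). Slc11a2 ranged from -0.070 to 0.17 (ratio), -0.077 to 0.011 (polysomal), -0.21 to 0.038 (total), -0.16 to 0.087 (polysomal against total RNA, control cells) and -0.054 to 0.091 (polysomal against total RNA, HuD cells). Ncoa4 ranged from -0.24 to 0.034 (3′ ends), -0.068 to 0.090 (total) and -0.20 to 0.037 (polysomal against total RNA, HuD cells). Elavl4 ranged from -0.37 to 0.027 (ratio).

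FPKM moved with the length. With the longest transcript, control cells had 599.8 (Fth1), 1373 (Ftl1), 12.0 (Tfrc), 18.7 (Slc11a2), 7.36 (Aco1), 29.0 (Ireb2) and 3.38 (Ncoa4), and with the mRNA of the most 3′ end reads 1331, 1373, 12.0, 27.3, 7.36, 29.0 and 4.79. Of the CRAC signal on members, Fth1 held 98.4% of coverage, 96.8% over all listed rows and 86.2% of deletions.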

Other observations

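Ferritin counts rested on few libraries. With 2 libraries per group the intervals of the HuD effect on Fth1 spanned 0.693-fold to 1.26-fold in total RNA and 0.644-fold to 1.51-fold for the ratio, so changes within these bounds were not detectable. CRAC depth per library is unknown, and intervals and p-values cover the spread between these libraries and not the reading of shared sequence. Pooled polysomal fractions do not tell light from heavy polysomes. Iron supply and ferritin protein were not measured in these libraries.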
